A study of Mus musculus with 8 samples.

Results

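The sebaceous gland genes Scd1, Scd3, Elovl3, Awat1, Awat2, Mc5r, Far2 and Dgat2 were followed in mouse forepaw skin after an intradermal injection of pituitary adenylate cyclase-activating polypeptide (PACAP). Members were the gene names of this list carried by non-control probes of an Agilent mouse array, and all 8 of 8 were found, on 12 of 39429 probes. The array held 29608 gene names in all. Both genotypes carried the strain label C57BL/6J, and PAC1R KO mice were Adcyap1r1 -/-, the gene of the PACAP receptor PAC1R. Males of 9 to 10 weeks received 5 µL of PACAP at 1e-07 mol/L in saline with 0.1% bovine serum albumin, or that vehicle alone, in the footpad under anaesthesia. The skin was taken 30 or 60 min later, from 6 mice per genotype. The sources used here do not give the mice behind each RNA sample or say if RNA of several mice was combined.

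Sebaceous glands sit beside the hair follicle and release sebum, a mixture of wax esters, triglycerides and cholesterol esters, when mature sebocytes burst. Sebocytes build this lipid from long fatty acids that are elongated and desaturated, partly reduced to fatty alcohols, and then joined to alcohols or glycerol. Hairless paw pads have eccrine sweat glands and no follicles. These genes were therefore read as a possible measure of haired skin that does not rest on the keratins of the growing hair. Whether each of them measures haired skin in these samples was not tested. Pearson correlations of Scd1, Scd3 or Dgat2 with Elovl3, Awat1, Awat2, Far2 or Mc5r ran from -0.81 to 0.68 across the RNA samples. Scd1, Dgat2 and Elovl3 are also used outside the gland, by fat cells or liver.

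The 8 RNA samples were hybridised as 4 pairs of PACAP and vehicle, in WT and KO skin at 30 and 60 min. Each pair was placed on 2 arrays with the Cy3 and Cy5 dyes swapped, which were counted as 1 replicate, so PACAP was set against vehicle without replicates between animals. The WT samples were all measured on 1 slide and the KO samples on a different one. The genotype therefore cannot be told apart from the slide, while both times of a genotype shared a slide. The share of spots called well above background was 78.6% to 94.5% in Cy5 and 54.0% to 65.3% in Cy3, and precision is limited by how few arrays there are. Once turned to PACAP over vehicle, the log ratios of the 2 arrays of a pair correlated between -0.54 and -0.31 over all probes. Over the probes above background in both channels on every array they correlated between 0.19 and 0.65. Both arrays are therefore given for many of the ratios that follow, and only the mean for the others. The Adcyap1r1 probe had log2 levels of 8.26 to 8.76 in WT samples and 7.91 to 8.56 in KO samples, which overlap. Whether this probe lies in the deleted part of the gene is not given in the sources used here, so it checks nothing about the labels, and KO means RNA labelled as such. Krt9, the keratin of palm and sole epidermis, lay between 15.03 and 15.70, and the water channel gene Aqp5 of the sweat gland between 13.49 and 14.36 by its brighter probe.

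A log2 level is the background-corrected and normalized signal of 1 RNA sample, averaged over its 2 arrays. Each gene is given by its brightest probe, and levels of different probes were not set against each other. All 8 brightest probes were well above background in all 8 RNA samples, on both arrays except for Awat2 in the WT vehicle sample at 30 min, where 1 of 2 arrays was above. Fewer sebaceous cells in a piece of skin and less RNA per cell cannot be told apart in such samples.

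What each value measures depends on its probe. Awat1 joins fatty acids to fatty alcohols to make wax esters, and its probe lies at chrX:97773128-97773187 on the plus strand of mm9. Scd3, a desaturase that puts the first double bond into long fatty acids, has 3 probes. The brightest lies at chr19:44318249-44318308 on mm9, plus strand, another at chr19:44316703-44316762 and the third at chr19:44289995-44290054. The files list the third under transcripts of both Scd3 and Scd1, so its signal may come from either gene. The probe of Elovl3, an enzyme that lengthens very long fatty acids, lies at chr19:46209762-46209821, plus strand. It carries the polyadenylation signal AATAAA (capitals), which 12.6% of the 39429 probes hold on the strand printed. The Awat1 probe, whose gene came nearest to a count for PACAP, and the third Scd3 probe, listed under both genes, are shown whole, with 60 bases, and of the others the first 30 bases, 5′ to 3′.

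Awat1 probe: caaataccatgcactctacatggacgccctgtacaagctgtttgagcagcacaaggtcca

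Elovl3 probe: ggcctggtaggcgcttAATAAAtgtctttt

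Scd3 brightest probe: ataaagtcaaccataggtcaagaggcagag

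Scd3 second probe: ttcagggtaggtgtctcaagccaaatccaa

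Scd3 probe also listed under Scd1: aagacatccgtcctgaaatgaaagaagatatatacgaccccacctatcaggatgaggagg

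Awat1, Far2 and Elovl3 had ranges of over 1.8 in log2 level, and each was higher at 60 min than at 30 min in both genotypes and both treatments. The question asked here is how far these levels followed PACAP, genotype or time. The log2 level of Awat1 was 9.53 in WT vehicle and 9.56 in WT PACAP skin at 30 min, and 10.30 and 10.89 at 60 min. In KO skin Awat1 was 9.15 with vehicle and 10.08 with PACAP at 30 min, and 10.84 and 11.07 at 60 min. The 4 samples at 60 min all lay above the 4 at 30 min, the lowest by 0.22, and the whole range was 1.92, or 3.78-fold. The SD between the 2 arrays of a sample had a median of 0.05.

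Far2 reduces fatty acids to the fatty alcohols of wax esters. Its log2 levels in WT skin were 7.49 with vehicle and 8.03 with PACAP at 30 min, and 8.46 and 9.17 at 60 min. In KO skin they were 7.45 and 7.67 at 30 min, and 9.04 and 9.31 at 60 min. Again every sample at 60 min lay above every sample at 30 min, by at least 0.44. The range over the 8 samples was 1.87, or 3.65-fold. The order of the genes by range changed with the scaling, since with processed signals it was 2.42 for Far2, 2.30 for Mc5r, 2.01 for Awat1 and 1.96 for Elovl3.

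Elovl3 had log2 levels of 8.97 with vehicle and 9.14 with PACAP in WT skin at 30 min, and 9.65 and 10.29 at 60 min. In KO skin it was at 8.72 and 9.42 at 30 min, and at 10.40 and 10.57 at 60 min. The groups at 30 and 60 min did not overlap, with 0.23 between them, and the range was 1.85, or 3.61-fold.

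**Figure D1:**
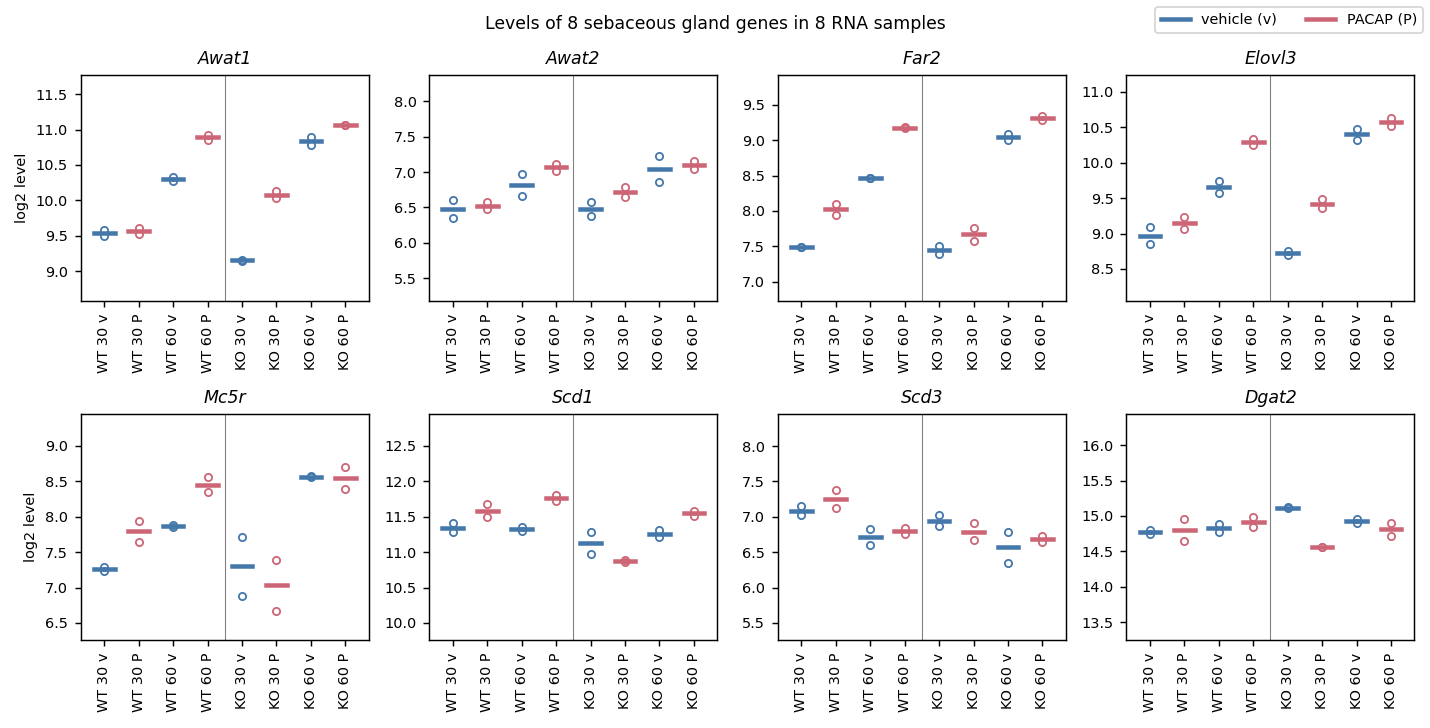
Log2 level (y axis, a span of 3.2 in each panel) of each gene's brightest probe in the 8 RNA samples (x axis, WT left and KO right of the grey line, v vehicle, P PACAP, 30 or 60 min). Open circles are the 2 arrays and bars their mean, and Awat1, Awat2, Far2, Elovl3 and Mc5r lie higher at 60 min, from 0.46 for Awat2 to 1.34 for Far2.

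Of the other 5 genes, Mc5r and Awat2 were also higher at 60 min throughout, by smaller margins at the scaling used here. Mc5r, the melanocortin receptor through which sebum release is stimulated, had log2 levels of 7.26, 7.80, 7.30 and 7.03 at 30 min (WT vehicle, WT PACAP, KO vehicle, KO PACAP) and of 7.87, 8.45, 8.57 and 8.55 at 60 min. Its times were 0.08 apart, less than the SD of 0.59 between the 2 arrays in the sample where they differed most. Awat2, another wax ester synthase, lay between 6.47 and 6.72 at 30 min and between 6.82 and 7.10 at 60 min. Its times were 0.10 apart, less than the median SD of 0.12 between the 2 arrays of a sample. In the Cy5 channel alone they were 0.01 apart. Awat2 is dim, and the offset of 50 added before the log makes its differences look smaller. With processed signals its times were 0.30 apart, beside 0.26 for Awat1 and 0.21 for Elovl3. The mean difference of Awat2 between the times, 0.46 with the offset of 50, was 0.66 with an offset of 16 and 1.17 with processed signals. Of the 8 genes, 5 therefore had every level at 60 min above every level at 30 min, beside 11.1% of 37755 probes. The second probe of Mc5r overlapped between the times, with 6.95 to 7.45 at 30 min and 7.37 to 7.55 at 60 min, a difference of 0.31 against 1.01 by the brightest.

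Scd1, the main desaturase of sebocytes, lay between 10.87 and 11.58 at 30 min and between 11.26 and 11.76 at 60 min, and the times overlapped. Dgat2, which adds the last fatty acid of triglycerides, lay between 14.56 and 15.12 at 30 min and between 14.81 and 14.93 at 60 min, within the 30 min values at both ends. Scd3 was the exception in sign, with 6.79 to 7.25 at 30 min and 6.57 to 6.80 at 60 min by its brightest probe. The second Scd3 probe went the other way, from 6.32 to 6.50 at 30 min and from 6.53 to 6.80 at 60 min, so the probes give Scd3 no direction. None of the 8 genes had every 60 min level below every 30 min level, beside 10.7% of probes.

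In vehicle skin alone, 60 min was set against 30 min with 2 samples each in limma. The difference was 1.23 for Awat1 (SE 0.24), 1.29 for Far2 (SE 0.22), 1.18 for Elovl3 (SE 0.29), 0.94 for Mc5r (SE 0.25) and 0.46 for Awat2 (SE 0.10), on the log2 scale. Their adjusted p-values lay between 0.19 and 0.23, and 0 of the 8 genes passed. Scd1 was 0.06 higher (SE 0.10), Dgat2 was at -0.06 (SE 0.14) and Scd3 at -0.37 (SE 0.09). The dim genes moved most with the scaling, since with processed signals Awat2 was at 1.18 (SE 0.21) and Scd3 at -0.80 (SE 0.24). No probe passed in this fit, 0% of 37538, although 6294 had an unadjusted p below 0.05, the 6 genes Awat1, Far2, Elovl3, Mc5r, Awat2 and Scd3 among them.

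A fit that used all 8 RNA samples, with genotype, time and treatment as additive terms, called Far2, Elovl3, Awat1, Awat2 and Mc5r higher at 60 min and Scd3 lower, with adjusted p between 0.0069 and 0.038. That is 5 of 8 genes higher, beside 9.74% of 37755 probes, and 1 of 8 lower, beside 7.14%. The PACAP and vehicle samples of a pair share arrays. With the pair as a random block, an alternative chosen after seeing the data, 4 of 8 were called higher, beside 6.98% of probes, and 0 of 8 lower, beside 3.73%. These were Far2 with a difference of 1.34 (SE 0.16, adjusted p 0.013), Awat1 with 1.19 (SE 0.18, adjusted p 0.022), Elovl3 with 1.17 (SE 0.17, adjusted p 0.019) and Awat2 with 0.46 (SE 0.05, adjusted p 0.013). Mc5r at 1.01 (SE 0.24) and Scd3 at -0.33 (SE 0.08) then had adjusted p of 0.058 and 0.056. The second Scd3 probe was called the other way, at 0.27, with adjusted p of 0.015 without the block and 0.025 with it. How many mice stand behind each RNA sample, and whether PACAP and vehicle skin of a pair came from the same mice, is not given in the sources used here, so these p-values measure the spread between 8 RNA samples.

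The differences between the times were not equal in the groups. Awat1 was 1.70-fold higher at 60 min in WT vehicle skin, 2.51-fold in WT PACAP skin, 3.22-fold in KO vehicle skin and 1.99-fold in KO PACAP skin. Elovl3 had 1.61-fold, 2.22-fold, 3.21-fold and 2.22-fold in the same order. For Far2 these were 1.96-fold, 2.22-fold, 3.03-fold and 3.12-fold. In all 3 genes the WT vehicle pair differed least. Each of these is a difference between 1 sample and 1 other, and their inequality was not tested.

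**Figure D2:**
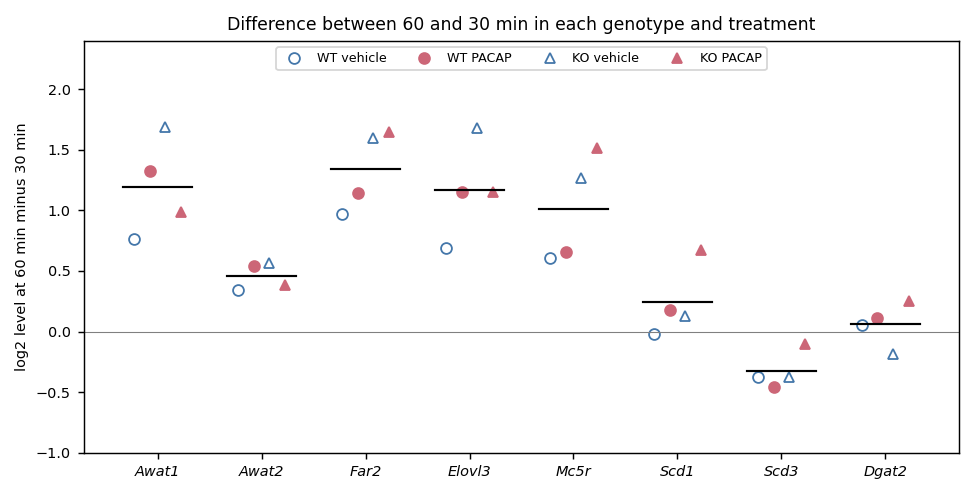
Log2 level at 60 min minus that at 30 min (y axis) for each gene (x axis) in WT (circles) and KO skin (triangles), with vehicle (open) or PACAP (filled), 1 sample at each time. Black bars are means of the 4 differences, and all 4 lie above 0 for Awat1, Awat2, Far2, Elovl3 and Mc5r and below 0 for Scd3.

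Pairs of the genes were also compared across samples. Elovl3, Awat1, Awat2, Far2 and Mc5r were grouped because their levels at 60 min all lay above those at 30 min, a choice that itself makes their correlations high. As a description, their 10 pairs had Pearson correlations of 0.83 to 0.99 over the 8 RNA samples, which share arrays in pairs. Elovl3 and Awat1 were the closest pair, at 0.99. Pairs of one of these with Scd1, Scd3 or Dgat2 ran from -0.81 to 0.68, and the 3 pairs among Scd1, Scd3 and Dgat2 from -0.04 to 0.26.

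Between the genotypes the vehicle samples gave no call. With 2 samples each, KO minus WT was 0.08 for Awat1 (SE 0.69), 0.25 for Elovl3 (SE 0.67), 0.27 for Far2 (SE 0.69), 0.36 for Mc5r (SE 0.52) and 0.12 for Awat2 (SE 0.25) in log2 level. Dgat2 was at 0.23 (SE 0.09), Scd1 at -0.14 (SE 0.07) and Scd3 at -0.14 (SE 0.20). In this fit the difference between 30 and 60 min counts as error. With time and treatment as terms over all 8 samples, KO minus WT was 0.21 for Awat1 (SE 0.16), 0.27 for Elovl3 (SE 0.15) and 0.08 for Far2 (SE 0.15). That additive fit called 0 of 8 genes, beside 10.4% of probes, and 0 of 8 with the block, beside 5.53%. By limma 0 of the 8 genes passed, as did 0% of 37538 probes, and 2428 probes had an unadjusted p below 0.05, none of them the brightest probe of a member.

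The injected peptide itself was tested by the ratio of PACAP to vehicle within each array. A probe was counted where the mean of both arrays reached 2.0-fold or lay at or under 0.5-fold, the arrays pointed the same way, and the scanner software's p on each was below 0.01. None of the 8 genes was counted in any of the 4 comparisons. In WT skin at 30 min 0.254% of probes were counted upwards and 0.0964% downwards, and at 60 min 0.583% and 0.109%. In KO skin 0.601% were counted upwards and 0.107% downwards at 30 min, and 0.142% and 0.15% at 60 min.

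The member nearest to a count was Awat1 in KO skin at 30 min, where PACAP in Cy5 gave 2.075-fold, PACAP in Cy3 gave 1.89-fold and the mean was 1.98-fold. Its arrays disagreed in direction in WT skin at 30 min, with 1.08-fold and 0.928-fold. They gave 1.59-fold and 1.41-fold in WT skin at 60 min, and 1.22-fold and 1.07-fold in KO skin at 60 min. The vehicle sample of KO skin at 30 min, against which the largest ratio was measured, was the lowest of the 8 samples in Awat1.

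Far2 was the one gene with a ratio above 1 on all 8 arrays. In WT skin the array with PACAP in Cy5 gave 1.83-fold at 30 min and 1.81-fold at 60 min, and the array with PACAP in Cy3 gave 1.55-fold and 1.73-fold. In KO skin the former gave 1.24-fold and 1.26-fold, and the latter 1.26-fold and 1.22-fold. The WT ratios were all above the KO ratios. A second Far2 probe, listed under another transcript, was not above background on both arrays in any sample and its log ratios were set to 0 by the scanner software.

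On its Cy5 and Cy3 arrays in turn, Elovl3 had PACAP over vehicle of 1.25-fold and 1.01-fold in WT skin at 30 min, and of 1.72-fold and 1.49-fold after 60 min. The KO arrays gave 1.80-fold and 1.55-fold at the earlier time, and 1.24-fold and 0.984-fold at the later. Awat2 had means of 1.04-fold, 1.41-fold, 1.66-fold and 1.14-fold in WT 30 min, WT 60 min, KO 30 min and KO 60 min. Its arrays disagreed in direction in the first and the last. Awat1, Awat2 and Elovl3 thus had their larger ratios in WT skin at 60 min and in KO skin at 30 min.

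Mc5r changed sign between the genotypes at 30 min. The WT arrays gave 1.93-fold and 1.57-fold at the earlier time, and 1.69-fold and 1.496-fold at the later. The KO arrays gave 0.693-fold and 0.697-fold, and then 1.11-fold and 0.957-fold. A second probe of Mc5r, also above background in all samples, did not show this, with means of 1.06-fold and 1.06-fold in WT skin and 1.24-fold and 0.965-fold in KO skin.

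Scd1 was at 1.16-fold and 1.33-fold in WT skin at 30 and 60 min, and at 0.832-fold and 1.23-fold in KO skin. Dgat2 was at 1.01-fold and 1.07-fold in WT skin, and at 0.670-fold and 0.914-fold in KO skin, its arrays at KO 30 min giving 0.652-fold and 0.689-fold. Scd3 had 1.23-fold, 1.101-fold, 0.812-fold and 1.31-fold in the order above, with arrays that disagreed in direction in all 4. For these 3 genes the ratio in KO skin at 30 min was the lowest of the 4.

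**Figure D3:**
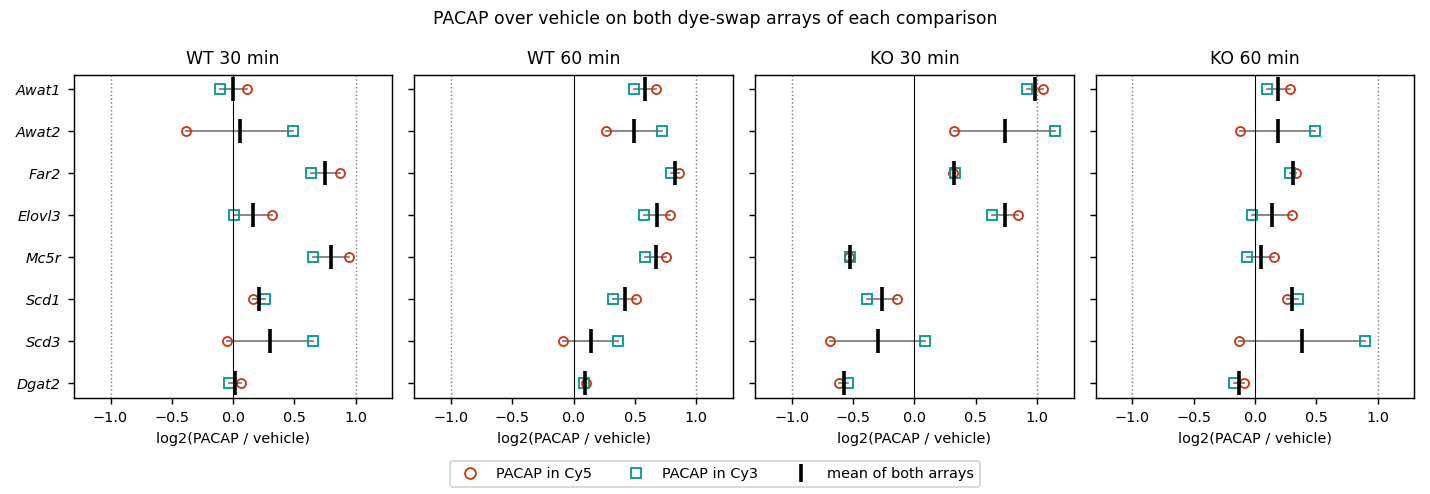
Log2 ratio of PACAP to vehicle (x axis, dotted lines at 2-fold up and down) for each gene (y axis) in the 4 comparisons. Circles are the array with PACAP in Cy5, squares that with PACAP in Cy3 and black ticks their mean, and no mean passes a dotted line, with Awat1 in KO skin at 30 min nearest at 0.99.

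The median log2 ratio of the 8 genes was 0.19 in WT skin at 30 min, 0.54 in WT skin at 60 min, 0.03 in KO skin at 30 min and 0.19 in KO skin at 60 min, where the median of all probes was 0 in each. All 8 means were above 0 in both WT comparisons, 4 of 8 in KO skin at 30 min and 7 of 8 at 60 min. Both arrays had the same direction for 4, 7, 7 and 4 of the 8 genes in that order. The genes share the RNA of each pair, so these are 4 values and not 8 replicates of each.

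Averaged over the 4 comparisons in limma, the mean log2 ratio was 0.55 for Far2 (SE 0.12), 0.44 for Awat1 (SE 0.17), 0.43 for Elovl3 (SE 0.14) and 0.37 for Awat2 (SE 0.13). It was 0.25 for Mc5r (SE 0.22), 0.17 for Scd1 (SE 0.13), 0.13 for Scd3 (SE 0.13) and -0.15 for Dgat2 (SE 0.13). Leaving out 1 comparison moved several of these by over 1.5 times. Without KO skin at 30 min the means were 0.50 for Mc5r, 0.31 for Scd1, 0.27 for Scd3, -0.01 for Dgat2, 0.26 for Awat1 and 0.24 for Awat2. Without WT skin at 30 min Mc5r was at 0.06 and Scd3 at 0.07, without WT skin at 60 min Mc5r was at 0.11, Scd1 at 0.08 and Dgat2 at -0.23, and without KO skin at 60 min Scd3 was at 0.05. With normexp and loess Awat2 was at 0.15 and Scd3 at 0.05. By limma 0 of 8 passed, with adjusted p of 1 for each, and so did 0% of 30351 probes, of which 678 had an unadjusted p below 0.05, Far2, Elovl3, Awat2 and Awat1 included. KO minus WT in this ratio was -0.97 for Mc5r (SE 0.25) and -0.47 for Far2 (SE 0.19), each with an adjusted p of 0.84. By limma 0 of 8 and 0% of 30351 probes differed between the genotypes, with 972 probes at an unadjusted p below 0.05, Mc5r and Far2 included. Between 60 and 30 min the ratio differed by -0.11 (SE 0.37) for Awat1 to 0.39 (SE 0.25) for Scd1. By limma 0 of 8 and 0% of 30351 probes differed here, with 483 probes at an unadjusted p below 0.05 and no member's brightest probe among them.

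Other genes of the gland and of lipid synthesis were counted from lists. Of 15 sebocyte genes, 4 were higher at 60 min in the additive fit with and without the block, and 1 was lower. The shares over all probes were 6.98% higher and 3.73% lower with the block, and 9.74% and 7.14% without. The 4 were Fa2h, which makes 2-hydroxy fatty acids, Cidea, a lipid droplet protein, the mucin gene Muc1, and Hsd3b6, a steroid dehydrogenase. With SE from the fit without the block here and for the lists that follow, Fa2h differed by 1.46 (SE 0.20), over log2 levels of 8.76 to 10.84, and Cidea by 1.02 (SE 0.12), over 11.04 to 12.69. Muc1, at 6.02 to 6.47 and above background in 7 of 8 samples, and Hsd3b6, at 6.03 to 6.41, were dim. The one lower was Prdm1, a repressor of transcription, at -0.37 (SE 0.07). Pparg, the receptor that drives sebocyte maturation and named for that role, was 0.08 higher with an adjusted p of 0.10 and did not pass. The median difference of the list was 0.08, where that of the 8 genes was 0.74 and that of all 37755 probes was -0.01.

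Of 9 genes of wax and glyceride synthesis, Dgat2l6 alone was called, higher by 1.13 (SE 0.08, adjusted p 0.0091 with the block), and 1 of 9 is near the share of all probes called higher, 9.74% without the block and 6.98% with it. Dgat2l6 lies between Awat2 and Awat1 on chromosome X in RefSeq's gene table of GRCm38.p6, and all 3 belong to the same acyltransferase family. Its log2 levels were 7.85, 8.08, 8.72 and 9.32 in WT skin (30 min vehicle, 30 min PACAP, 60 min vehicle, 60 min PACAP) and 7.82, 8.48, 9.17 and 9.54 in KO skin. Its ratio of PACAP to vehicle was above 0 in all 4 comparisons, with 0.32, 0.71, 0.85 and 0.35 on the log2 scale. The order over comparisons was that of Awat1, with the larger values in WT skin at 60 min and KO skin at 30 min.

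RefSeq's promoter table held entries for 4 of the 8 genes, Awat1, Awat2, Far2 and Scd3, in 5 entries. The 250 bases before the start of Awat1 and of 1 entry of Awat2, neighbours whose levels moved together, are shown in the direction of the gene, from GRCm38.p6 at chrX:100571997-100572246 (plus strand) and chrX:100442718-100442967 (minus strand). CCAAT on either strand is in capitals.

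Awat1 promoter: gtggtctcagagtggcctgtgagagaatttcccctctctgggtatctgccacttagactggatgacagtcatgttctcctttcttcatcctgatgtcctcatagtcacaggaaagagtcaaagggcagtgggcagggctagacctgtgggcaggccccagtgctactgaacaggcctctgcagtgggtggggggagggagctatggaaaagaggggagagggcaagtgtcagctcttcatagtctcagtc

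Awat2 promoter: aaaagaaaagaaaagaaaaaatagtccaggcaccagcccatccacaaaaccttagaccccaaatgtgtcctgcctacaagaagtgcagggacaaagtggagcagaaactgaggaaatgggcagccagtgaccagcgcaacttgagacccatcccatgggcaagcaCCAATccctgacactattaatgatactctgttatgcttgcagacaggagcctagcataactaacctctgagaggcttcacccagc

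Both entries of Awat2 held CCAAT and the other 3 entries did not, where 33.8% of 32851 promoter windows of this length held it on either strand. AGGTCA, the half-site bound by nuclear receptors such as PPARG, was in 0 of the 5 entries and in 14.02% of all windows. TATAAA was in 0 of 5 and in 12.4% of all windows.

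Of 14 genes of fatty acid synthesis and elongation, 1 was higher at 60 min in the fit with the block and 1 was lower, beside 1 and 3 without it. The shares over all probes were 6.98% and 3.73% with the block, and 9.74% and 7.14% without. Thrsp, a regulator of lipid synthesis, was higher by 0.60 (SE 0.09), over log2 levels of 10.04 to 11.10. Srebf1, the transcription factor of fatty acid synthesis, was lower, at -0.32, also with the block (adjusted p 0.0396). The median of the list was -0.07. Of 11 genes of cholesterol synthesis 0 were called in either fit, with a median of -0.06. None of the genes of these lists passed the thresholds for PACAP over vehicle in any comparison.

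Hair and fat were read beside the gland, since a follicle carries both gland and shaft. The median of 21 genes of the hair shaft and inner root sheath, each centred on its mean over the 8 samples, was -0.58, -0.18, -0.48 and 0.76 in WT skin (30 min vehicle, 30 min PACAP, 60 min vehicle, 60 min PACAP) and -1.15, -0.14, 1.17 and 0.75 in KO skin. The 8 sebaceous genes had medians of -0.45, -0.15, 0.01 and 0.50 in WT skin and -0.43, -0.25, 0.46 and 0.51 in KO skin. Both were highest in the same 3 samples at 60 min. They parted in the WT vehicle sample at 60 min, where the hair median was near its value at 30 min and the sebaceous one was not.

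In the ratio of PACAP to vehicle the hair list had medians of 0.27, 1.92, 1.102 and -0.46 on the log2 scale in WT 30 min, WT 60 min, KO 30 min and KO 60 min. Past the thresholds were 3, 14, 12 and 0 of its 21 genes, all upwards. Krt33a, a keratin of the hair shaft, reached 3.26 in WT skin at 60 min. The sebaceous medians, at 0.19, 0.54, 0.03 and 0.19, were likewise highest in WT skin at 60 min, and parted from the hair medians in both KO comparisons. At KO 30 min, however, 4 sebaceous genes were above 0 and 4 below, and Awat1 at 0.99, Elovl3 at 0.74 and Awat2 at 0.74 had their larger ratios in WT skin at 60 min and KO skin at 30 min, where the hair list had its own. The part of hair follicle in the sebaceous values was not tested. From 30 to 60 min the median difference of the hair list was 1.08, and 1.13 in vehicle skin alone, beside 0.74 and 0.70 for the 8 sebaceous genes. In the fit with the block, 1 of 21 hair genes was called higher at 60 min (Msx2), beside 6.98% of probes, and 1 lower (Foxn1), beside 3.73%. Without the block Krt35 was called higher too, with an adjusted p of 0.0496, and the SE of Krt33a was 0.75. The difference between the lists was not tested.

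The 13 adipocyte genes stayed within -0.06 and 0.04 of their mean, as the median over genes, in all 8 samples. All 13 were above background in all 8 samples, but single genes varied in ways that the median does not show. Ucp1, which makes heat in brown fat, lay between 6.69 and 7.83 in log2 level, and Lpl, a lipase that takes up fatty acids, between 8.20 and 9.07. In the fit with the block 0 of 13 were higher at 60 min, beside 6.98% of probes, and 2 were lower, Ucp1 and Pck1, beside 3.73%. Without the block 1 was higher (Lep) and 3 were lower (Ucp1, Pck1 and Lpl), beside 9.74% and 7.14%.

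Markers of liver and muscle stood apart in single samples. The 10 hepatocyte genes had a median of 0.65 in the WT vehicle sample at 60 min, where the other 7 samples lay between -0.17 and 0.00. Fabp1, a fatty acid binding protein of liver and gut, was at 7.96 there and at 6.08 to 6.44 in the others. Its PACAP over vehicle ratio in that comparison was -4.08 on the log2 scale, and 6 of 10 genes of the list passed downwards. In that sample Scd1, Dgat2 and Elovl3 were at 11.33, 14.83 and 9.65, inside their ranges over the other samples, which span both times. The part of liver RNA in these levels was not tested. Without the WT vehicle sample at 60 min, the difference between 60 and 30 min in vehicle skin was 1.496 for Awat1 (SE 0.21), 1.58 for Far2 (SE 0.085) and 1.56 for Elovl3 (SE 0.15). That left 1 sample at 60 min. Without the KO vehicle sample at 60 min instead, these were 0.96, 0.995 and 0.81, so the size rests on which of the 2 samples is kept. Mc5r, at 0.94 with both, was then at 0.59.

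Skeletal muscle genes had a median ratio of 0.81 in WT skin at 30 min and of -0.81 in KO skin at 30 min. Mc5r had 0.80 and -0.53 there by its brightest probe, while Awat1 had 0.00 and 0.99. Genes of interfollicular and palm epidermis had a median of -0.66 in KO skin at 30 min, with 2 of 11 past the thresholds downwards, and 1 of 11 above 0. In that comparison Dgat2, Mc5r, Scd3 and Scd1 were below 0 and Awat1, Elovl3, Awat2 and Far2 above it. The part of muscle and epidermis in these ratios was not tested.

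**Figure D4:**
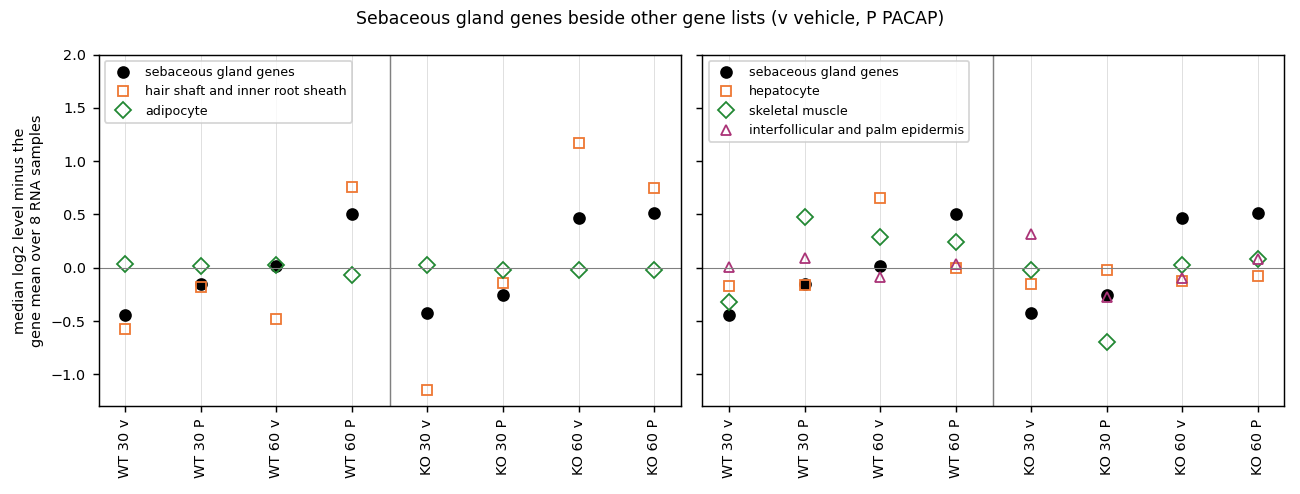
Median over the genes of a list of the log2 level minus the gene's own mean over 8 RNA samples (y axis), by sample (x axis, WT left and KO right, v vehicle, P PACAP). The sebaceous gland genes run from -0.45 to 0.51, the hair list from -1.15 to 1.17 and the adipocyte list from -0.06 to 0.04, and the hepatocyte list is at 0.65 in the WT vehicle sample at 60 min.

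Genes outside the list were ranked by how closely their level followed the mean centred level of the 8 genes over the 8 RNA samples. Among 23080 gene names above background in every sample, the closest 5 were Pnpla5, Cyp3a57, Pdzk1, Pisd-ps3 and Fa2h, each at a Pearson correlation of 0.99. Pnpla5, a lipase, lay between 6.95 and 7.26 at 30 min and between 7.61 and 8.14 at 60 min. Fa2h was also on the sebocyte list. The samples share arrays in pairs, and a ranking over so many genes finds close matches among any 8 values, so these are a description.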

How the data were processed

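Forepaw skin RNA was measured on 8 two-colour Agilent arrays, 4 pairs of samples on 2 dye-swap arrays each. The authors extracted the scans with Feature Extraction (12.0.3.1 in the file headers, 11.0.1.1 in the labels). The deposited log10 ratio of red over green was made by the authors' software after background correction and LOWESS within each array, with a p-value per spot that speaks of 1 array. The deposited intensity values are mean, background and processed signals per channel. Names of genes and positions on mm9 come from the scanner files.

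Control and outlier spots were left out, spots of a probe averaged and ratios turned to PACAP over vehicle by the labelled dye. Levels used normexp with an offset of 50, loess and Aquantile, and were averaged over both arrays. No depth exists for arrays. Fits used limma 3.58.1 in R 4.3.3 with Benjamini-Hochberg adjustment at 0.05. Ratios were fitted on 30351 probes above background in at least 1 channel of every array, and vehicle levels on 37538 above background in a vehicle sample. The additive fits of 8 levels used 37755 probes above background in at least 1 channel of any array. Centring and tables used Python 3.11.15, numpy 2.4.6, pandas 2.3.3 and matplotlib 3.10.9. The fits of ratios and of vehicle levels and the counting rule were run on simulated data. The changes planted there were larger than any member's difference, so finding changes of the size seen here was not tested. The additive fits, with or without the block, were not simulated. Members and lists were chosen with earlier results of these data known. Of each other list the counts, the median and up to 4 genes with the largest ratio or widest range are named, with called genes of short counts named after their values were seen, and Pparg, Pomc and the genes that check tissue and genotype named for their roles. Of the 5 genes closest in pattern, only names above background in all 8 samples were considered. Lists of eccrine gland and housekeeping genes served as further references. Alternatives were other background corrections and scalings, single dyes, other probes, other filters and thresholds, samples left out, covariates and additive fits.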

Additional observations from a re-analysis of the deposited data

How the results depend on the processing

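By replicate number no paired analysis was possible because the numbers 1 and 2 in the labels are the 2 dye orientations of the same pair of RNA samples, while the pairing of PACAP and vehicle on shared arrays is used in the ratios and in the random block. The count of members past the thresholds was 0 in 32 values and stayed 0 under normexp and loess, array medians at 0, outlier spots kept, series matrix ratios, the fold alone, all probes averaged and both channels above background. It was 1 with only the PACAP in Cy5 array (Awat1, KO 30 min), 1 with only the PACAP in Cy3 array (Awat2, KO 30 min) and 7 at 1.5-fold. The shares of all probes under these changed rules are not given here, so these counts cannot be set against probes in general. The members' median log2 ratio moved by more than the SD between arrays in these cases: 0.37 in WT skin at 30 min with PACAP in Cy3, 0.59 in WT skin at 60 min with PACAP in Cy5 and 0.41 with all probes averaged, 0.21 in KO skin at 30 min with PACAP in Cy3, and in KO skin at 60 min 0.14 with normexp and loess, 0.21 with PACAP in Cy5 and 0.15 with all probes averaged. The members called for 60 against 30 min were 0 in vehicle samples under every scaling, filter, covariate and left-out sample, 6 in the additive fit of 8 levels and 4 with the pair as random block. The median range of the members' levels was 1.21, and became 1.82 with processed signals and quantile scaling, 1.41 with an offset of 16, 1.40 in the Cy5 channel alone and 0.92 with all probes averaged. The cause of these moves was not tested. In the Cy5 channel alone 4 members, without Mc5r, kept all 60 min levels above all 30 min levels. Fits on PACAP over vehicle that left out a comparison or added a covariate called up to 170 probes of all those tested (KO against WT, without WT at 30 min), against 0 in the main fits, and 0 members. The additive fits called 0 members for KO against WT, and 3937 probes, or 2087 with the block. The 60 against 30 min difference of each gene's brightest probe kept its sign in 10 of 10 alternatives for Awat1, Awat2, Elovl3, Far2, Mc5r and Scd3, in 9 for Scd1 and in 7 for Dgat2. Not all of these are separate checks. Dropping the filter or adding the covariate leaves the estimate as it was, and the block leaves that of the additive fit. With all probes averaged, that of Scd3 over the 8 samples turned from -0.33 to 0.04. Awat2 and Scd3 are dim, which limits what their ratios can show.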

Other observations

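Among 8 measured genes of the melanocortin system, to which Mc5r belongs, 3 were higher at 60 min than at 30 min in the additive fit, with and without the block, beside 6.98% and 9.74% of all probes. They were the receptor genes Mc4r (by 0.25 on the log2 scale) and Mc1r (by 0.16) and the accessory protein gene Mrap2 (by 0.39), named after their values were seen. All lay at log2 levels below 6.8, near the dim end, and Mc1r was above background in 7 of 8 samples. Pomc, the gene of the peptides that bind these receptors, was at 0.03 with an adjusted p of 0.86 with the block. Of 9 genes of the outer root sheath and bulge, Sox9, a factor of follicle stem cells, was lower at 60 min, at -0.69. Of 10 eccrine gland genes, 1 was lower (Foxa1, at -0.34) and 0 were higher. The shares of all probes called lower were 7.14%, or 3.73% with the block, so 1 of 9 and 1 of 10 are near them. Of 9 housekeeping genes 0 were called with the block and 1 without it, B2m, higher by 0.28, with adjusted p of 0.06 and 0.031.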
